A study of Mus musculus with 6 samples.

Results

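Cell cycle and DNA replication genes were followed in cultured mouse bone marrow neutrophils. The 48 genes were taken by symbol from a list that spans the cell division cycle, from the G1 cyclins to the spindle, and all 48 were found among the 45777 genes of the count table. The neutrophils were isolated on a Percoll density gradient from marrow of wild type mice of strain C57BL/6, whose age the labels do not give. They were kept for 24 h with prostaglandin E2 (PGE2) at 10 µM or with DMSO as vehicle. PGE2 is a lipid signal that raises cyclic AMP through some of its receptors. Each treatment had 3 poly(A) RNA-seq libraries, described as biological replicates. All 48 genes had at least 10 counts in each of the 6 libraries, the lowest being 17, so none entered the test through 1 group alone.

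Cells divide by a sequence of switches. D-type cyclins with CDK4 and CDK6 phosphorylate the RB protein, E2F factors then drive the genes of DNA replication, and cyclin A, cyclin B and CDK1 carry the cell through G2 and mitosis, while CDK inhibitors such as p21 hold the kinases back. In the neutrophil lineage this programme is active in bone marrow progenitors and is shut down as the cells mature, so that mature neutrophils do not divide. Erythroid and B cell precursors of the marrow divide as well and use the same genes.

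The libraries held between 42091346 and 56238941 counts. Mature neutrophil genes led the libraries, with S100a9, a calcium-binding alarmin, at a mean of 120400 TPM (transcripts per 1000000, a level corrected for length) with vehicle and 129600 with PGE2, and S100a8 at 77800 and 81330. Genes of other marrow cells were also present, and no gene of any of the marker lists was at 0 in all libraries. The summed level of 15 erythroid markers was 15960 to 52070 CPM (counts per 1000000) in the PGE2 libraries and 4584 to 20360 with vehicle, led by the haemoglobin genes Hbb-bs and Hba-a1. That of 14 B lineage markers was 1396 to 1999 and 1107 to 1462 CPM, led by Ighm and Cd79a. That of 14 markers of neutrophil progenitors and immature neutrophils, led by Ngp and Lcn2, was 4721 to 9725 CPM with PGE2 and 10400 to 17350 with vehicle. Of the 48 genes, 14 overlap a gene on the other strand and 6 one on the same strand, where reads may be shared. In such bulk libraries, fewer cells of a type and less RNA per cell cannot be told apart.

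With PGE2, 4 of the 48 genes were higher and 2 were lower than with vehicle. Cdkn1a, which encodes the CDK inhibitor p21, rose 9.1-fold, and Pcna, Aurka and Ube2c rose by 1.3 to 1.5-fold. The transcription factor gene E2f2 and the G1 kinase gene Cdk6 fell to 0.61 and 0.66 of the vehicle level. A call is an adjusted p under 0.05 in edgeR's quasi-likelihood test, with Benjamini-Hochberg adjustment over all 15947 genes tested. Of all genes tested, 24.4% were called, 10.1% as higher and 14.3% as lower, against 12.5% of the 48. Among all calls 41.5% were higher, a share that was 55.5% with library totals alone and 30.0% on the TPM scale. The median log2 fold change, PGE2 minus vehicle, was 0.10 over the 48 genes and 0.04 over all genes tested. At an unadjusted p under 0.05 there were 15 of the 48 genes. The 24.4% of all genes that were called are under that p as well, and the full share under it was not counted. Among the 48, genes whose 3 PGE2 libraries lay entirely above or below the 3 vehicle libraries also numbered 15, 10 higher and 5 lower. Of all genes tested, 42.3% had groups that did not overlap.

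The other 42 genes did not pass. For 37 of them the 95% interval of the log2 fold change lay between -1 and 1, so changes of more than 2-fold were outside the interval, while smaller ones may have been missed with 3 libraries a group. The titles number the replicates and do not state that libraries with the same number were paired. When edgeR's fit included that number as a block, 10 of the 48 genes were higher and 7 lower, including the 6 above. That fit called 35.5% of all genes tested. DESeq2's Wald test called 6 higher and 3 lower, adding Cdk1, Birc5 and Mcm6, and its share over all genes is not given here. Over all alternatives, adjusted p-values of the 11 genes that passed with the block and not without it ran from 0.00546 to 0.546. Without 1 library, the genes called higher numbered 1 without PGE2 replicate 3 or vehicle replicate 2, 2 without PGE2 replicate 1 or vehicle replicate 1, 3 without PGE2 replicate 2 and 4 without vehicle replicate 3. Those called lower numbered 3 without PGE2 replicate 1, 2 without PGE2 replicate 3, and 1 without PGE2 replicate 2 or any 1 of the vehicle libraries. Over all genes tested, fewer were also called higher when any 1 library was left out, as given in the closing section. The numbers called lower over all genes in these fits are not given here. The counts among the 48 include genes that did not pass with all 6 libraries. Such higher genes were Ccnb1 without PGE2 replicate 2, Birc5 without vehicle replicate 1 and Cdc20 without vehicle replicate 3. Such lower genes were Cdk2 without PGE2 replicate 1 and Mcm6 without PGE2 replicate 3.

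**Figure D1:**
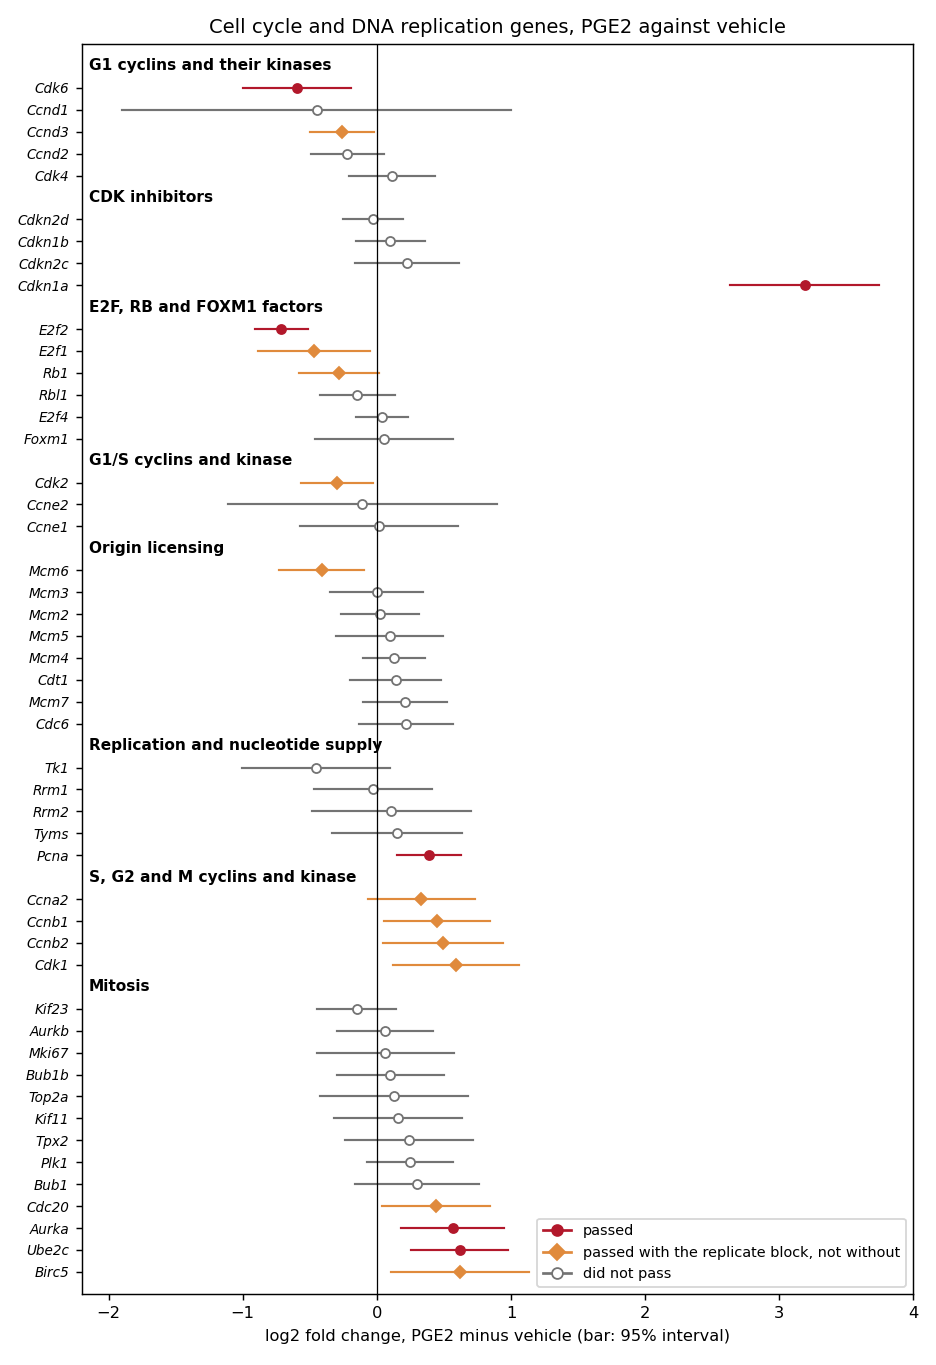
Log2 fold change (x axis, PGE2 minus vehicle) of each of the 48 genes, grouped by role, with its 95% interval; filled red points passed the test, orange diamonds passed when the replicate number was a block and not without it, and open grey points did not pass. Cdkn1a, at 3.19, lies far to the right of the other genes, which lie between -0.71 and 0.62.

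Among the 4 CDK inhibitors, Cdkn1a was the one that passed. It lies on the plus strand at chr17:29090979-29100722 (mm10), with no overlapping gene in the files. Its level in the PGE2 libraries 1, 2 and 3 was 99.6, 185 and 109.8 CPM, and in the vehicle libraries 13.4, 16.3 and 13.5 CPM. All PGE2 libraries were far above all vehicle libraries, and PGE2 replicate 2 was the highest. The means were 131 ± 46.5 and 14.4 ± 1.6 CPM (SD, n = 3 each), a log2 fold change of 3.19 ± 0.24 (SE; edgeR adjusted p = 0.000255). The call held under every alternative, with log2 fold changes from 2.86 without PGE2 replicate 2 to 3.36 without PGE2 replicate 1 when 1 library was left out. By size of log2 fold change Cdkn1a stood at position 69 of the 1618 genes called higher. Its mean level per length went from 13.1 to 109 TPM, below that of Cdkn1b (p27), which had 210.2 TPM with vehicle.

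Cdkn1b, the most abundant CDK inhibitor gene, had 313, 352 and 266 CPM with PGE2 and 271, 303 and 293 CPM with vehicle. These groups overlapped, and the log2 fold change of 0.10 ± 0.11 did not pass (edgeR adjusted p = 0.565). Cdkn2d (p19) and Cdkn2c (p18), inhibitors of CDK4 and CDK6, did not pass either, at -0.03 ± 0.10 and 0.23 ± 0.17.

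The 250 bases before the first listed start of Cdkn1a (RefSeq, GRCm38.p6, chr17:29090729-29090978, plus strand) are shown because this gene had the largest change among the 48. They hold none of the 4 motifs searched in the promoters of these genes. The same is true of the bases before another listed start of Cdkn1a (chr17:29093519-29093768), which are not printed. The motifs, searched on both strands with overlaps allowed, were the cell cycle homology region CHR (TTTGAA), the CCAAT box (CCAAT), 4 forms of the E2F site (TTTCCCGC, TTTGGCGC, TTTGCCGC and TTTCGCGC) and the cyclic AMP response element (TGACGTCA).
Cdkn1a: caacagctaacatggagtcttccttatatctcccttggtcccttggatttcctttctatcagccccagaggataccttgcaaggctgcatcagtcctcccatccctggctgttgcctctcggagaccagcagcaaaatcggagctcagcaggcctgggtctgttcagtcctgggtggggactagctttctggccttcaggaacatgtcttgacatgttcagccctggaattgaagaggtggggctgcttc

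**Figure D2:**
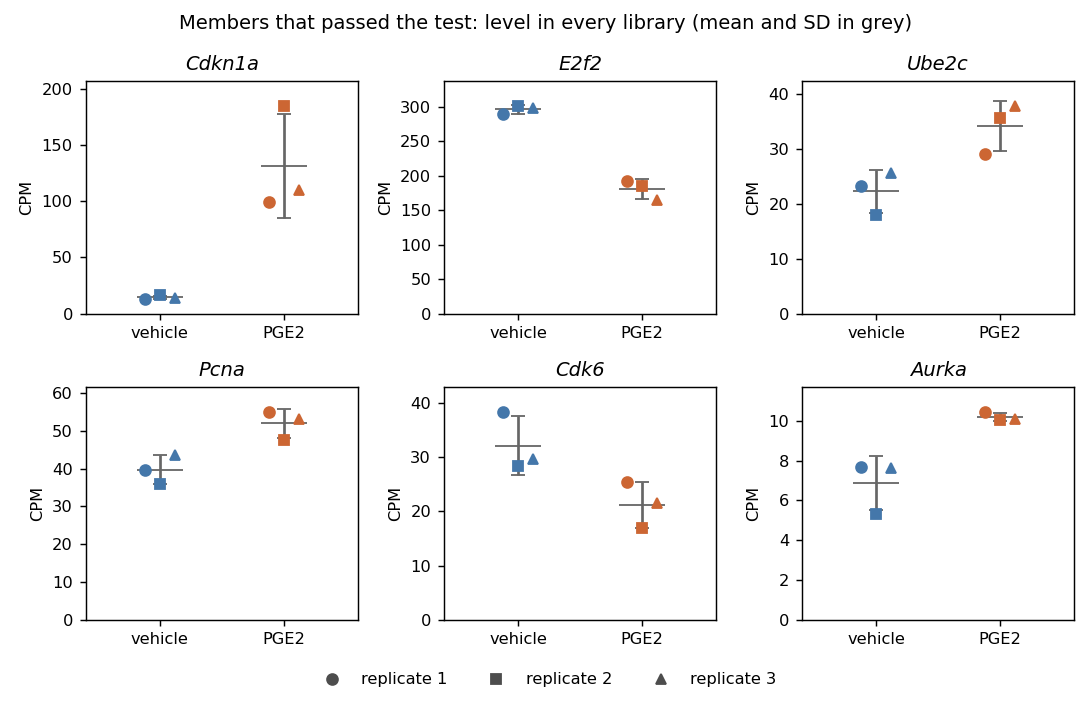
Level in CPM (y axis, from 0) in every library for the 6 genes that passed, with vehicle at left and PGE2 at right; circles, squares and triangles are replicates 1, 2 and 3, and grey bars are the mean and SD of 3 libraries. In each of the 6 genes the PGE2 and vehicle libraries do not overlap, and Cdkn1a has the widest spread, from 99.6 to 185 CPM with PGE2.

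Of the 5 G1 cyclins and their kinases, Cdk6 was lower and none was higher. Cdk6, a partner of the D-type cyclins, had 25.3, 16.9 and 21.5 CPM with PGE2 and 38.3, 28.4 and 29.6 CPM with vehicle. Every PGE2 library was below every vehicle library. The log2 fold change was -0.60 ± 0.17 (edgeR adjusted p = 0.0398, and 0.00159 with the replicate block). The call was lost without PGE2 replicate 2 (adjusted p = 0.102), PGE2 replicate 3 (0.0992), vehicle replicate 1 (0.137), vehicle replicate 2 (0.0563) or vehicle replicate 3 (0.0634). It was also lost with library totals alone (0.105), with no filter (0.0520) and on the TPM scale (0.0927), and the range over all alternatives was 0.00159 to 0.137. Cdk6 (chr5:3341004-3531008, plus strand) overlaps 2 provisional genes on the other strand, whose reads cannot be told apart if counting ignored strand.

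Ccnd3, the cyclin gene with the highest level, had 262, 247 and 205 CPM with PGE2 and 287, 291 and 277 CPM with vehicle. The groups did not overlap, yet the log2 fold change of -0.26 ± 0.10 did not pass without the replicate block and did with it (edgeR adjusted p = 0.104 without it and 0.0326 with it). Per length it was also the highest of the 48 genes, at 254 TPM with vehicle, followed by Cdkn1b, Cdkn2d and E2f2, the other genes above 100 TPM. Ccnd2 (-0.22 ± 0.12), Cdk4 (0.12 ± 0.14) and Ccnd1 (-0.45 ± 0.63) did not pass. Ccnd1 was the lowest of the 48, at 0.659 TPM with vehicle, and its interval from -1.90 to 1.00 leaves its direction undetermined.

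Of the 6 E2F, RB and FOXM1 genes, E2f2 was lower and none was higher. E2f2, an activator E2F, had 193, 185 and 164 CPM with PGE2 and 289.7, 301 and 298 CPM with vehicle. The groups were far apart relative to their spread, with means of 181 ± 14.7 and 296 ± 5.96 CPM (SD, n = 3 each). The log2 fold change was -0.71 ± 0.09 (edgeR adjusted p = 0.00102), and the call held under every alternative, with adjusted p-values up to 0.00732. Among the 48 genes, Cdkn1a and E2f2 were those whose call no alternative ended.

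E2f1, the best known activator, had 7.18, 5.95 and 5.73 CPM with PGE2 and 10.7, 7.68 and 7.68 CPM with vehicle. Rb1, which encodes the pocket protein that binds E2Fs, had 74.1, 62.1 and 57.2 CPM against 90.0, 73.3 and 71.6 CPM. Both passed with the replicate block and not without it, E2f1 at -0.47 ± 0.18 (edgeR adjusted p = 0.101 without the block and 0.0225 with it) and Rb1 at -0.28 ± 0.13 (0.158 and 0.0126). The repressor gene E2f4 (0.03 ± 0.08), the pocket protein gene Rbl1 (-0.15 ± 0.12) and Foxm1 (0.05 ± 0.22), whose product drives mitotic genes, did not pass.

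The promoter of E2f2, the gene that fell with the smallest error, is printed for the first listed start (RefSeq, GRCm38.p6, chr4:136172024-136172273, plus strand). Capitals mark 1 CCAAT box, a motif that 34.5% of all 27025 promoters of this length hold. The bases before another listed start of E2f2 (chr4:136180532-136180781) hold 1 CHR and 3 CCAAT boxes and are not printed.
E2f2: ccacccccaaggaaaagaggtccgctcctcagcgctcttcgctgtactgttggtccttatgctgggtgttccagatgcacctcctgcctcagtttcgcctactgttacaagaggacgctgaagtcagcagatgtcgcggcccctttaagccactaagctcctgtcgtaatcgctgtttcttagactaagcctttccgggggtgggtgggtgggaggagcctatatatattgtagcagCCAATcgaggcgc

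With all 6 libraries, none of the 3 G1/S genes passed in edgeR without the replicate block or in DESeq2. Of these genes 1, Cdk2, had an unadjusted p under 0.05. Cdk2, the kinase that cyclin E activates, had 62.5, 53.1 and 48.6 CPM with PGE2 and 72.3, 60.6 and 68.8 CPM with vehicle. PGE2 replicate 1 lay above vehicle replicate 2, and the log2 fold change of -0.30 ± 0.12 did not pass without the replicate block and did with it (edgeR adjusted p = 0.104 without it and 0.0251 with it). Cdk2 shares its locus with Pmel on the other strand. The cyclin E genes Ccne1 (0.01 ± 0.26) and Ccne2 (-0.11 ± 0.44) were low, at 1.63 and 1.65 TPM with vehicle.

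With all 6 libraries, none of the 8 origin licensing genes passed in edgeR without the replicate block. There 1, Mcm6, had an unadjusted p under 0.05, and DESeq2 called it lower. The median log2 fold change of the 8 was 0.11. The 8 genes encode 6 subunits of the MCM helicase and its loaders Cdc6 and Cdt1. Mcm6 had the lowest log2 fold change of the 6 MCM genes. Its level was 23.5, 23.0 and 29.6 CPM with PGE2 and 38.1, 29.9 and 33.2 CPM with vehicle, and its groups did not overlap. Its log2 fold change of -0.41 ± 0.14 did not pass without the replicate block and did with it (edgeR adjusted p = 0.0617 without it and 0.0222 with it). Mcm7, the MCM gene with the highest level per length, had 34.6, 29.6 and 41.0 CPM with PGE2 and 29.8, 27.9 and 33.2 CPM with vehicle, and its log2 fold change was 0.21 ± 0.14. Mcm2, Mcm4 and Mcm5 had values from 0.03 to 0.13, Mcm3 was at 0 within its error of 0.15, and Cdc6 and Cdt1 had 0.22 ± 0.15 and 0.14 ± 0.15.

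The E2F site was found before 7 of the 38 genes for which a promoter was at hand (18.4%) and before 1.91% of all promoters, or 3.29% of those of genes tested. Of the 7 licensing genes with a promoter, 4 held it. Mcm6 (GRCm38.p6, chr1:128359706-128359955, minus strand, printed in the direction of the gene) holds 3, of which a pair overlaps, and 2 CCAAT boxes. These are marked in capitals, read as ATTGG where the box is on the opposite strand.
Mcm6: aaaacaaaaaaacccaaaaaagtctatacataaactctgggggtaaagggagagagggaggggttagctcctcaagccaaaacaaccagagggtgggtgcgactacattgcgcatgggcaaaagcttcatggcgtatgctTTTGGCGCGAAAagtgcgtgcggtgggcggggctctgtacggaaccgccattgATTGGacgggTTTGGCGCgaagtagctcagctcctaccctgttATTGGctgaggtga

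Of the 5 genes of replication and nucleotide supply, Pcna was higher and none was lower. Pcna, the sliding clamp of the replicative polymerases (chr2:132249286-132253180, minus strand), had 55.0, 47.7 and 53.2 CPM with PGE2 and 39.7, 35.9 and 43.6 CPM with vehicle. Every PGE2 library was above every vehicle library, by a log2 fold change of 0.39 ± 0.10 (edgeR adjusted p = 0.0284, and 0.00481 with the replicate block). The call was lost without PGE2 replicate 1 (adjusted p = 0.0695), PGE2 replicate 3 (0.0766), vehicle replicate 1 (0.0702) or vehicle replicate 2 (0.107), and on the TPM scale (0.218), in a range of 0.00481 to 0.224 over all alternatives. The ribonucleotide reductase genes Rrm1 and Rrm2 had -0.03 ± 0.19 and 0.11 ± 0.26, and thymidylate synthase (Tyms) had 0.15 ± 0.21. Thymidine kinase (Tk1), which shares its locus with Afmid on the other strand, had -0.45 ± 0.24, opposite in sign to Pcna. None of these 4 passed.

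None of the 4 S, G2 and M genes passed in the fit without the block, and all 4 were higher in the fit with it. Without the block, 3 had an unadjusted p under 0.05 in edgeR, and DESeq2 called 1, Cdk1. Their median log2 fold change was 0.47, and 0.33 without vehicle replicate 2. Cdk1, the mitotic kinase, had 25.1, 20.9 and 25.2 CPM with PGE2 and 17.7, 10.8 and 18.9 CPM with vehicle. Ccnb2 (cyclin B2) had 27.8, 28.3 and 28.9 CPM with PGE2 and 24.3, 13.8 and 22.4 CPM with vehicle. For both genes the groups did not overlap, and vehicle replicate 2 was the lowest library.

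The log2 fold change of Cdk1 was 0.59 ± 0.20 (edgeR adjusted p = 0.0710, and 0.00546 with the block) and that of Ccnb2 was 0.49 ± 0.19 (0.103 and 0.0313). Ccnb1 (cyclin B1) had 0.45 ± 0.17 (edgeR adjusted p = 0.0943 and 0.0144 with the block), and Ccna2 (cyclin A2), which shares its locus with Exosc9 on the other strand, 0.33 ± 0.17 (0.208 and 0.0110). In each replicate number, each of these 4 genes was higher in the PGE2 library than in the vehicle library.

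Of the 13 mitosis genes, Ube2c and Aurka were higher and none was lower. Their median log2 fold change was 0.24, and 12 of the 13 values were above 0, where 8460 of the 15947 genes tested were. The median fell to 0.04 without vehicle replicate 2. With the block, 4 of the 13 were higher. Without PGE2 replicate 2, PGE2 replicate 3 or vehicle replicate 2, edgeR called none of the 13, with 4, 3 and 2 at an unadjusted p under 0.05.

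Ube2c, the ubiquitin-conjugating enzyme that serves the anaphase-promoting complex (chr2:164769929-164772902, plus strand), had 29.1, 35.6 and 37.9 CPM with PGE2 and 23.3, 18 and 25.6 CPM with vehicle. The groups did not overlap, and vehicle replicate 2 was lowest. The log2 fold change was 0.62 ± 0.16 (edgeR adjusted p = 0.0231, and 0.00660 with the block). The call was lost without PGE2 replicate 2 (adjusted p = 0.0674), PGE2 replicate 3 (0.0696), vehicle replicate 1 (0.0506) or vehicle replicate 2 (0.0667), and on the TPM scale (0.0614), in a range of 0.00293 to 0.0696 over all alternatives.

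Aurka, the Aurora A spindle pole kinase (chr2:172356190-172370886, minus strand), had 10.4, 10.1 and 10.1 CPM with PGE2 and 7.70, 5.33 and 7.64 CPM with vehicle. The PGE2 libraries were close to each other and all above the vehicle libraries. The log2 fold change was 0.56 ± 0.17 (edgeR adjusted p = 0.0416, and 0.0143 with the block), and the call was lost whichever library was left out, at adjusted p-values of 0.0547 without vehicle replicate 1 to 0.103 without vehicle replicate 2. It was lost too with no filter (0.0597) and on the TPM scale (0.157), in a range of 0.0143 to 0.157 over all alternatives. Aurka overlaps Cstf1 on the other strand.

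Birc5 (survivin) and Cdc20, an activator of the anaphase-promoting complex, passed with the block and not without it. Birc5 had 25.4, 20.5 and 20.8 CPM with PGE2 and 19.1, 9.85 and 14.5 CPM with vehicle, with the PGE2 libraries all higher, and its log2 fold change was 0.62 ± 0.22 (edgeR adjusted p = 0.0813 without the block and 0.00693 with it). Cdc20 had 17.2, 17.2 and 23.1 CPM against 12.6, 12.6 and 17.2 CPM, and its log2 fold change was 0.44 ± 0.17 (0.106 and 0.00693). Cdc20 overlaps Elovl1 on the other strand.

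Mki67, the gene of the proliferation marker Ki-67, had 176, 123 and 152 CPM with PGE2 and 193, 104 and 136 CPM with vehicle. The groups overlapped throughout, and the log2 fold change of 0.06 ± 0.22 ranged from -0.13 to 0.34 when 1 library was left out. The topoisomerase gene Top2a (0.13 ± 0.24), the checkpoint genes Bub1 (0.30 ± 0.20) and Bub1b (0.10 ± 0.17), the kinase genes Plk1 (0.25 ± 0.14) and Aurkb (0.06 ± 0.16), and the spindle genes Tpx2 (0.24 ± 0.21), Kif11 (0.16 ± 0.21) and Kif23 (-0.15 ± 0.13) did not pass in either fit.

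The CCAAT box was found before 10 of the 11 mitosis genes with a promoter and before all 3 of the S, G2 and M genes with one, against 65.8% of the 38 promoters and 34.5% of all promoters (36.6% of those of genes tested). The CHR was found before 5 of the 11 and 2 of the 3, against 16.3% of all promoters (11.6% of those of genes tested). The cyclic AMP response element was found before 1 of the 38 genes (2.63%), Mcm5, and before 1.62% of all promoters (2.61% of those of genes tested). Cdk1 (chr10:69352913-69353162, minus strand), Ccnb2 (chr9:70421555-70421804, minus strand), Ube2c (chr2:164769679-164769928, plus strand) and Pcna (chr2:132253181-132253430, minus strand) are shown as genes with higher levels in the block fit, from RefSeq GRCm38.p6 and in the direction of the gene. Capitals mark the CHR, which reads TTCAAA on the opposite strand, the CCAAT boxes, which read ATTGG on the opposite strand, and 1 E2F site in Cdk1. A match is a match of letters and does not show that a factor binds there.
Cdk1: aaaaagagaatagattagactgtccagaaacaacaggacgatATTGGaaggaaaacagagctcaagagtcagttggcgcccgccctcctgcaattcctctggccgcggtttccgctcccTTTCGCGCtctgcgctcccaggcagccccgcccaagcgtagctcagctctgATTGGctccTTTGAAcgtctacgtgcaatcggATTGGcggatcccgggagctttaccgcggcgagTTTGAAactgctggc
Ccnb2: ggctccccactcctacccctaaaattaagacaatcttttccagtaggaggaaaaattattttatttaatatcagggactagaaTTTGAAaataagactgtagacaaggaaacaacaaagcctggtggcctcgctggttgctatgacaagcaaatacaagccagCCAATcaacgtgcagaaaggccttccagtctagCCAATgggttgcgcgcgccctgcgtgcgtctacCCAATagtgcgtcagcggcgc
Ube2c: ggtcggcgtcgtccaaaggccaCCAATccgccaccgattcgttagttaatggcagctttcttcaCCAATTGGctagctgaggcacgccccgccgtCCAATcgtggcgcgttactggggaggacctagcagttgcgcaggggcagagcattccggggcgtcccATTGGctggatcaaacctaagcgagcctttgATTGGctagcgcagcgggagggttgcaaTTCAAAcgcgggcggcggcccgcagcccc
Pcna: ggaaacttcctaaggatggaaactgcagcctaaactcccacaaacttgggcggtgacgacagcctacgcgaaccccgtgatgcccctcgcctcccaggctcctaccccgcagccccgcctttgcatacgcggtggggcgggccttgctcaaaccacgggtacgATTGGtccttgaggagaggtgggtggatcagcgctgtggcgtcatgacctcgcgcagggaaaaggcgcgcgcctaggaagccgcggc

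The 48 genes also varied between libraries of 1 treatment. Vehicle replicate 2 was the lowest vehicle library for 36 of the 48 genes and for 12 of the 13 mitosis genes. PGE2 replicate 2 was the lowest PGE2 library for 27 of the 48 and for 11 of the 13. The summed level of the 13 mitosis genes was 544, 425 and 532 CPM in PGE2 replicates 1, 2 and 3 and 549.9, 334 and 459 CPM in the vehicle replicates. The libraries of the 2 treatments thus overlapped, and the libraries numbered 2 were the lowest of each.

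**Figure D3:**
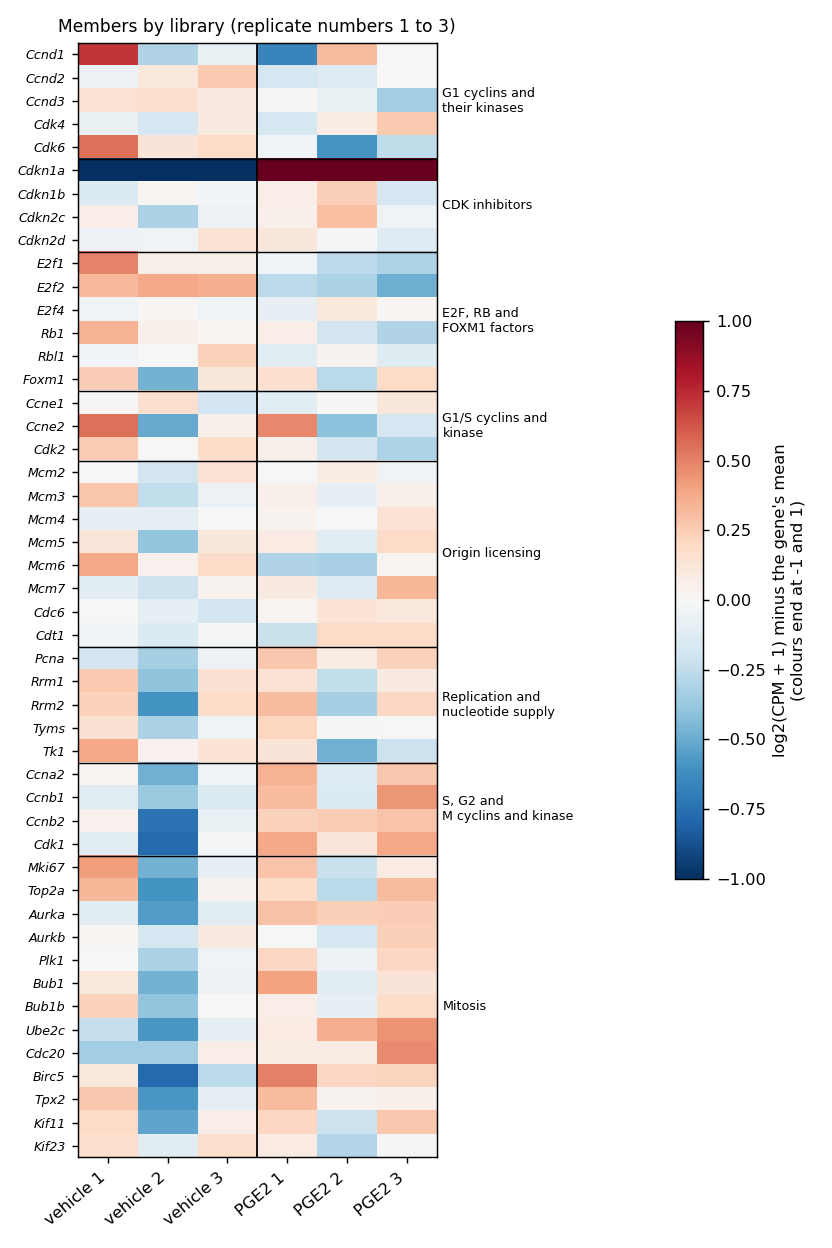
Log2(CPM + 1) of each of the 48 genes in each library minus the gene's mean over the 6 libraries (colour, from -1 in blue to 1 in red, where the scale ends), with genes in rows by role and libraries in columns. The column of vehicle replicate 2 is blue for most mitosis genes, where it was the lowest vehicle library for 12 of 13, and Cdkn1a is at the ends of the scale in all 6 libraries.

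Markers of the marrow's cell types were read from the same fit, in which 24.4% of all genes tested were called, and 35.5% with the block. Among erythroid markers 2 of 15 passed, the erythropoietin receptor gene Epor and the transferrin receptor gene Tfrc, both higher, and all 15 were higher in the block fit. Among B lineage markers 5 of 14 were higher, among them the B cell receptor genes Cd79a and Cd79b, and 10 in the block fit. Among markers of neutrophil progenitors and immature neutrophils 6 of 14 were lower, among them the elastase gene Elane and the myeloperoxidase gene Mpo, and 11 in the block fit. Of 14 mature neutrophil markers 8 were lower, among them the chemokine receptor gene Cxcr2 and Ly6g, and 2 were higher, Il1b and Clec4d, with the same counts in the block fit. Stem and progenitor markers, led by Myb and Sox4, had summed levels of 225 to 258 CPM with PGE2 and 199.8 to 237 with vehicle, and 1 of 11, Procr, was higher. None of those tested was called higher with the filter of 50 counts, on the TPM scale, or without PGE2 replicate 1 or any 1 vehicle library. Monocyte and macrophage markers, led by Cd68 and Csf1r, had 2 of 13 lower, and those of eosinophils, basophils and mast cells, led by Prg2 and Mcpt8, had 3 of 10 lower. There were 12 T and NK cell markers, led by Trbc2 and Klrd1, and 7 megakaryocyte markers, led by Pf4 and Itga2b. With all 6 libraries, edgeR without the block and DESeq2 called none of them. In that edgeR fit 1 of each had an unadjusted p under 0.05. In the block fit 4 of the 12 and 1 of the 7 were higher. Without PGE2 replicate 1, with no block, 1 of the 12 was higher.

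The share of haemoglobin genes was 1.57, 4.87 and 2.51% with PGE2 (replicates 1, 2 and 3) and 0.413, 1.86 and 1.11% with vehicle. The libraries numbered 2, which had the lowest levels of most mitosis genes within each treatment, had the highest haemoglobin shares and the lowest B lineage sums. Their sums of immature neutrophil markers (4721 CPM with PGE2 and 10400 with vehicle) were also the lowest of each treatment. So were those of stem and progenitor markers (225 and 199.8 CPM). Their sums of mature neutrophil markers (98200 and 90510 CPM) and of megakaryocyte markers (38.0 and 32.0 CPM) were the highest. The part of erythroid, B lineage and immature or mature neutrophil RNA in the differences of the 48 genes was not tested.

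**Figure D4:**
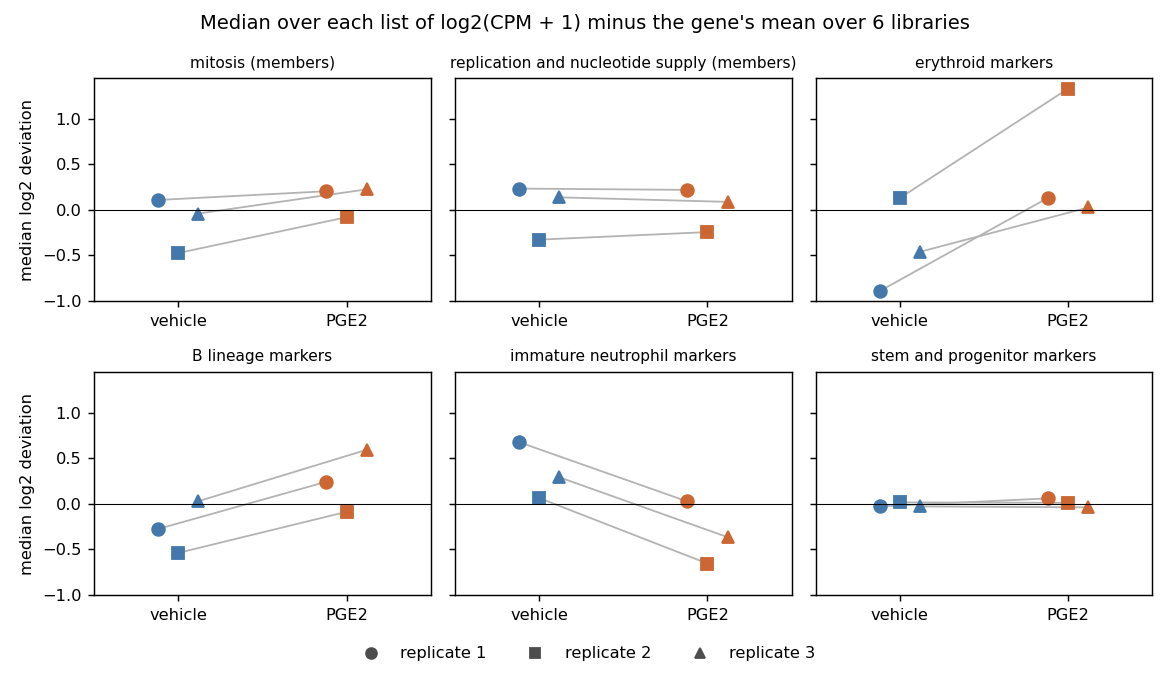
Median over each gene list of log2(CPM + 1) minus the gene's mean over the 6 libraries (y axis), by treatment (x axis); circles, squares and triangles are replicates 1, 2 and 3, and grey lines join libraries with the same number. The libraries numbered 2 are the lowest of each treatment for the mitosis genes, the replication and nucleotide supply genes, the B lineage markers and the immature neutrophil markers. They are the highest for the erythroid markers, and neither the lowest nor the highest of both treatments for the stem and progenitor markers.

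Other genes of the cycle were read from the same fit. Of 134 further cell cycle and p53 target genes tested, 14 were higher and 11 lower, and the median log2 fold change was 0.18. The share called was 18.7%, against 24.4% of all genes tested. By list it was 29.4% of the other regulators, 15.8% of the other replication genes, 11.4% of the other mitotic genes and 21.05% of the p53 targets. In the fit with the replicate block, which called 35.5% of all genes tested, 39 of the 134 were higher and 14 lower. Without vehicle replicate 2, 6 of the 134 were higher and 11 lower.

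Of 34 other cell cycle regulators tested, 5 were higher and 5 lower. The lower ones encode transcriptional regulators of the cycle. Lin54, the DNA-binding subunit of the MuvB core that recognises the CHR, had 25.4, 23.6 and 21.3 CPM with PGE2 and 51.2, 47.6 and 48.6 CPM with vehicle. Rbl2, which encodes the pocket protein p130, had 58.2, 58.4 and 59.8 CPM against 99.7, 93.9 and 92.0 CPM. In both genes the groups were far apart relative to their spread, with log2 fold changes of -1.07 ± 0.10 (edgeR adjusted p = 0.000409) and -0.69 ± 0.08 (adjusted p = 0.000721).

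Tfdp1, which encodes the E2F dimerisation partner DP1, had 113, 74.1 and 74.4 CPM with PGE2 and 239, 213 and 179 CPM with vehicle, a log2 fold change of -1.27 ± 0.18 (edgeR adjusted p = 0.00219). The atypical repressor gene E2f8 had 21.4, 15 and 19.2 CPM against 42.3, 33.7 and 32.0 CPM, a log2 fold change of -0.95 ± 0.16 (adjusted p = 0.00419). Neither gene's groups overlapped. The other lower gene was the activator E2f3, at -0.80 ± 0.18 (edgeR adjusted p = 0.0154), whose call was lost without PGE2 replicate 3 (0.0532) or vehicle replicate 1 (0.0575), in a range of 0.000362 to 0.0575 over all alternatives. Rbl2 and E2f8 overlap genes on the other strand.

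The higher regulators were Lin52, another MuvB subunit (0.65 ± 0.13), the transcription elongation kinase gene Cdk9 (0.43 ± 0.08) and its cyclin gene Ccnt1 (0.44 ± 0.10), the phosphatase gene Cdkn3 (0.67 ± 0.19) and Ccnh, the cyclin of the CDK-activating kinase (0.45 ± 0.14). Lin52 and Cdk9 passed under every alternative. Without PGE2 replicate 1, PGE2 replicate 2 or vehicle replicate 3, 3 regulators were higher, and without vehicle replicate 2, 2 were. The 3 without vehicle replicate 3 included Cdc25b (edgeR adjusted p = 0.0263), which did not pass with all 6 libraries (0.359). Ccnh (edgeR adjusted p = 0.0485) did not pass with DESeq2's size factors (0.0559), with no filter (0.0700), on the TPM scale (0.288) or without any 1 library other than vehicle replicate 1 (0.0767 to 0.156). Cdkn3 (adjusted p = 0.0344) did not pass on the TPM scale (0.0875) or without PGE2 replicate 1 (0.0820), PGE2 replicate 2 (0.0566), vehicle replicate 2 (0.104) or vehicle replicate 3 (0.0796). Ccnt1 (adjusted p = 0.0157) did not pass on the TPM scale (0.163) or without vehicle replicate 2 (0.0507) or vehicle replicate 3 (0.0541). The other MuvB subunits, named after their values were seen, did not pass, at 0.29 ± 0.16 for Lin9, 0.11 ± 0.15 for Lin37 and 0.13 ± 0.10 for Rbbp4. Cdkn2a (p16 and p19ARF) was at 0 counts in all 6 libraries.

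Of 38 other replication genes, 3 were higher and 3 lower, and the median log2 fold change was 0.21. The lower ones were Rfc1 (-0.66 ± 0.13) and Rfc2 (-0.46 ± 0.09), subunits of the clamp loader that places PCNA on DNA, and Rrm2b (-0.40 ± 0.09), the p53-inducible ribonucleotide reductase subunit. With library totals alone Rrm2b did not pass (edgeR adjusted p = 0.0818, the highest over its alternatives, from 0.000638). The higher ones were the histone genes' RNA-binding protein Slbp (0.34 ± 0.08), the histone chaperone Nasp (0.46 ± 0.12) and the single-strand binding subunit Rpa3 (0.65 ± 0.18). Without PGE2 replicate 2 these 3 did not pass (edgeR adjusted p = 0.0579 for Slbp, 0.0706 for Nasp and 0.0783 for Rpa3). The 1 gene called higher there was Orc6 (0.0335), which did not pass with all 6 libraries (0.0993). None was higher without vehicle replicate 2, where edgeR had 3 at an unadjusted p under 0.05. On the TPM scale limma called none higher, with 2 at an unadjusted p under 0.05.

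Of 44 other mitotic genes, 4 were higher and 1 was lower, and the median log2 fold change was 0.25. Cenpa, the centromeric histone H3 variant, had 47.2, 54.7 and 60.6 CPM with PGE2 and 28.4, 29.3 and 38.5 CPM with vehicle. All PGE2 libraries were higher, by a log2 fold change of 0.76 ± 0.15 (edgeR adjusted p = 0.00721). Hjurp, the chaperone that deposits CENP-A, was the lower gene, at 189, 159 and 164 CPM with PGE2 and 305, 245 and 261 CPM with vehicle (-0.66 ± 0.11, adjusted p = 0.00394). Hjurp overlaps Mroh2a on the other strand.

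The other 3 higher mitotic genes were Cks2, a subunit of mitotic CDK complexes (0.47 ± 0.10), and the spindle genes Nusap1 (0.46 ± 0.11) and Ckap2 (0.68 ± 0.17). On the TPM scale limma's adjusted p was 0.0573 for Cks2, 0.0858 for Nusap1 and 0.101 for Ckap2, and Cenpa was the 1 gene of the 44 that was higher. Nusap1 was also lost without PGE2 replicate 2 (0.0542), vehicle replicate 2 (0.0621) or vehicle replicate 3 (0.0620), and Ckap2 without PGE2 replicate 1 (0.0545), PGE2 replicate 3 (0.0677) or vehicle replicate 2 (0.0649). In the block fit 21 of the 44 were higher and 2 lower, and without vehicle replicate 2, with no block, 2 were higher and 1 lower. The erythroid and B lineage values given above stand beside these counts, and their part was not tested.

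Cdkn1a is a well known target of p53, and other targets were listed for that reason. Of 19 tested, 2 were higher and 2 lower, and the median log2 fold change was 0.15. Plk2, a polo-like kinase gene, had 21.0, 32.7 and 28.6 CPM with PGE2 and 4.65, 6.78 and 5.82 CPM with vehicle, a log2 fold change of 2.26 ± 0.20 (edgeR adjusted p = 0.000394). As for Cdkn1a, the groups did not overlap and PGE2 replicate 2 was the highest library. Gadd45a, a growth arrest gene, was higher (0.73 ± 0.16), and the proapoptotic gene Bbc3 (-0.71 ± 0.14) and Trp53inp1 (-0.78 ± 0.10) were lower. These 4 passed under every alternative. The p53 target genes Mdm2 (-0.18 ± 0.08) and Bax (0.10 ± 0.14), named after their values were seen, did not pass.

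**Figure D5:**
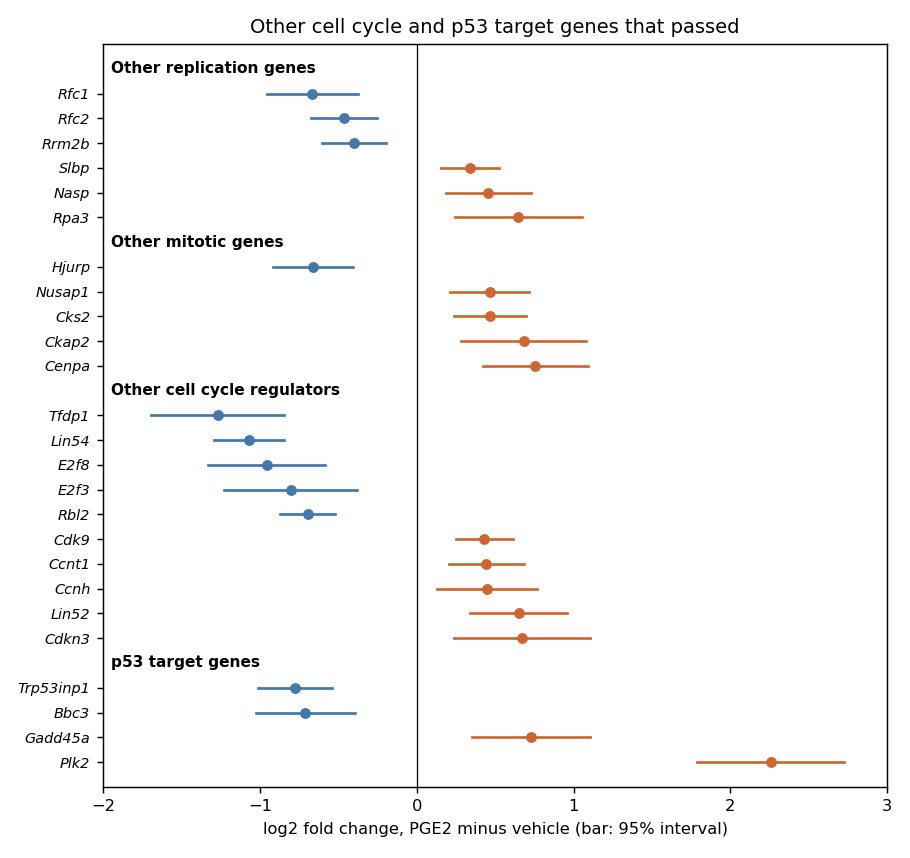
Log2 fold change (x axis, PGE2 minus vehicle) with its 95% interval for the 25 further cell cycle and p53 target genes that passed, grouped by list; orange points were higher and blue points lower with PGE2. Plk2 lies highest, at 2.26, and Tfdp1 lowest, at -1.27.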

How the data were processed

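The 6 poly(A) RNA-seq libraries were grouped and numbered by their titles. The labels' protocols name the kit both as standard and as stranded. StringTie 2.1.3b, STAR, RSEM, Bowtie2 and DESeq2 are named, with build mm10, per the submitters' processing notes. The tool behind each value and any use of strand were not given in the sources used here. Estimated counts per gene for the whole series were deposited by the authors, and were used as unnormalised and rounded to whole numbers. TPM, FPKM and read coverage per gene were deposited by the authors per library, per the file headers, and of these TPM was used. The authors' table also held 18 columns of 6 other libraries, which were not used.

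Genes with at least 10 counts in at least 3 libraries were tested with edgeR 4.0.16 (quasi-likelihood test, TMM scaling, two-sided, R 4.3.3). The test was also run on simulated counts with few changed genes and no link between libraries. That simulation differs from these data and cannot show how the test performs on them. CPM values use the TMM-scaled totals. Intervals are 95% intervals from the edgeR fit to all 6 libraries without the block. The p-values measure the spread between these libraries. Alternatives were the replicate block, DESeq2 1.42.0, its size factors, library totals alone, no filter, a filter of 50 counts, limma 3.58.1 on log2(TPM + 1) or log2(TPM + 0.1) over genes with at least 1 TPM in 3 libraries, and each library left out.

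Libraries with the same number deviated together from their group means, with correlations of 0.26, 0.18 and 0.18 over genes. For other pairings they were -0.16 to 0.00. Removing the group means pushes these down when the same-number ones are above 0, so they are not separate evidence. The numbers from the titles were taken to pair the libraries, a choice made from the same data that the block fit used. Gene lists and members were chosen with earlier results of these data known. Named in full are members that passed and the member with the highest mean TPM in each role. Up to 4 genes per direction with the smallest adjusted p in each other list, and the 2 with the highest mean TPM in each marker list, are named as well. Coordinates are those of the files, and 47 of the 48 members had the same in RefSeq GRCm38.p6. Promoters came from RefSeq for 38 of the 48, the first listed start being used.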

Additional observations from a re-analysis of the deposited data

How the results depend on the processing

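Cdkn1a and E2f2 kept their direction and their call under every alternative. Over all genes 1618 were higher and 2278 lower. The genes called higher numbered 2648 with the replicate block, 967 and 953 on the TPM scale with pseudocounts of 1 and 0.1, and 1005 to 1541 with 1 library left out, the lowest being 1005 without vehicle replicate 2 and 1063 without PGE2 replicate 2. Of the 48 genes, 4 were higher and 2 lower. These counts were 10 and 7 with the replicate block, 1 and 1 on the TPM scale with either pseudocount, 4 and 1 with library totals alone, 3 and 1 with no filter, and 1 to 4 and 1 to 3 with 1 library left out. Of the further genes, 14 were higher, against 39 with the block, 6 with either TPM pseudocount and 6 to 15 with 1 library left out, 6 being without vehicle replicate 2. The median log2 fold change of all genes was 0.04, against 0.13 with library totals alone and -0.06 on the TPM scale.

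Some genes that did not pass changed sign. On the TPM scale, with pseudocounts of 1 and 0.1, these were Cdkn1b (-0.0175 and -0.0175), E2f4 (-0.0764 and -0.0782), Foxm1 (-0.0325 and -0.0359), Ccne1 (-0.0543 and -0.0814), Mcm2 (-0.0694 and -0.0776), Tyms (-0.0321 and -0.0405) and Aurkb (-0.0524 and -0.0595). With library totals alone they were Cdkn2d (0.0654), Mcm3 (0.0901) and Rrm1 (0.0664). Mcm3 was also at 0.0151 with the block, 0.0033 with no filter and 0.0149 with the filter of 50 counts. With 1 library left out, log2 fold changes spanned 0 for Ccnd1 (-0.93 to 0.23), Cdkn2d (-0.0829 to 0.0413), E2f4 (-0.0095 to 0.0905), Foxm1 (-0.14 to 0.22), Ccne1 (-0.12 to 0.15), Ccne2 (-0.53 to 0.32), Mcm2 (-0.0594 to 0.11), Mcm3 (-0.12 to 0.17), Mcm5 (-0.0637 to 0.19), Rrm1 (-0.21 to 0.12), Rrm2 (-0.12 to 0.29), Mki67 (-0.13 to 0.34), Top2a (-0.0914 to 0.36), Aurkb (-0.0551 to 0.16), Bub1b (-0.0584 to 0.27) and Kif11 (-0.0349 to 0.32). The cause was not tested. Ccnd1 had 17 to 113 counts a library, and how far depth limits it was not tested.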
